A study of Mus musculus with 2 samples.

Results

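Cells of the group given as wound macrophages carried transcripts of the chemokine gene Ccl24 or of the lipoprotein lipase gene Lpl. They made up 146 of 1755 filtered cells from diabetic mouse wounds and 148 of 1123 from non-diabetic wounds, 294 of 2878 in all. They were chosen by their raw counts of unique molecular identifiers (UMIs, 1 per captured transcript): Ccl24 and Lpl together 5 or more, Inhba under 3, Ccl8, Gas6 and Igf1 together under 10, and Cd209a and Klrd1 together under 5. A filtered cell had at least 500 detected genes and under 10% of its UMIs from mitochondrial genes. The study compared monocytes and macrophages digested from skin wounds of diabetic and of non-diabetic mice on day 6 after injury, with 1 droplet library of 3' transcript ends (10x Chromium) per condition and cells of 2 mice pooled in each. The labels name neither the strains nor the way diabetes arose, and they speak of mice per strain, so diabetes, strain, pool of animals and library cannot be told apart wherever the libraries are compared. No age, sex or treatment beyond the wound was given in the labels. With 1 library per condition no difference has a replicate check and no p-value is given. All intervals are exact 95% intervals that cover counting error only, not the spread between cells or mice.

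Macrophages in healing skin arise largely from blood monocytes, which enter the wound in an inflammatory state and later take up debris, lipid and matrix. Ccl24 encodes eotaxin-2, a ligand of the receptor CCR3 that attracts eosinophils and is a gene of alternatively activated macrophages. Lpl encodes the secreted lipase that splits triglycerides of lipoproteins, and lipid-laden macrophages express it. The other 3 marker genes given with the group are Gdf15, a stress-induced member of the TGF-beta superfamily, Gpnmb, a glycoprotein of lysosome-rich macrophages, and Bcl2a1a, which encodes a relative of BCL2 that opposes cell death.

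The diabetic library held 31730014 UMIs over 2214 barcodes and the non-diabetic library 17559986 UMIs over 2026 barcodes. Of these barcodes 459 diabetic and 903 non-diabetic ones failed the filter. Diabetic group cells had a median of 18444 UMIs, against 16167 in the other filtered diabetic cells, and non-diabetic group cells a median of 14577.5 UMIs, against 14021 in the others. The summed counts of the group were 3198255 UMIs in the diabetic and 2216002 in the non-diabetic library. No barcode of the group occurred in both libraries. Median mitochondrial shares were 4.07% in diabetic and 3.84% in non-diabetic group cells.

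Macrophage markers were found in the group, but they did not set it apart from the other cells. Classical monocyte markers summed to 5 or more UMIs in 112 of 146 diabetic and 138 of 148 non-diabetic group cells. Macrophages and monocytes are thus not told apart by these lists. All 12 macrophage markers were detected in the group in both libraries at 20 CPM or more (CPM, the UMIs of a gene in a set of cells scaled to a total of 1000000). They summed to 9878 CPM in diabetic and 8722 CPM in non-diabetic group cells, against 12442 CPM in the other diabetic and 7836 CPM in the other non-diabetic cells. The receptor gene Csf1r stood at 515 CPM in diabetic and 384 CPM in non-diabetic group cells, and Cd68 at 434 CPM in diabetic and 444 CPM in non-diabetic cells. Markers of T and NK cells summed to 1 UMI in diabetic and 0 UMIs in non-diabetic group cells. Adipocyte markers, listed because Lpl is also a fat cell gene, summed to 2 UMIs in diabetic and 1 UMI in non-diabetic group cells, with Adipoq, Plin1, Cidec and Lep at 0 in both. The 5 markers given with the group were seldom all detected in the same cell. A single one of them was detected in 67 of 146 diabetic and 57 of 148 non-diabetic group cells. All 5 were detected in 0 diabetic and 2 non-diabetic group cells. Exactly 3 were detected in 14 group and 15 of 1609 other diabetic cells, and in 31 group and 21 of 975 other non-diabetic cells. Ccl24 and Lpl are among the 5 and chose the cells, so nothing is read from this. Bcl2a1a shares at least 98% of its transcript sequence with Bcl2a1b and Bcl2a1d, so its reads may be split between these genes and its level is uncertain.

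The group formed a smaller share of the diabetic library. It held 8.32% of the filtered diabetic cells (95% interval 7.07% to 9.71%), against 13.2% of the filtered non-diabetic cells (11.3% to 15.3%). The gap was mostly one of Ccl24. Under the same upper limits, 1.48% of diabetic and 6.14% of non-diabetic filtered cells had 5 or more Ccl24 UMIs. For 5 or more Lpl UMIs the shares lay closer together, at 6.9% in diabetic and 8.19% in non-diabetic cells. Because the rule counts raw UMIs, a deeper cell meets it more easily. With cells thinned to 5000 UMIs and the rule unchanged, 4.15% of diabetic and 8.45% of non-diabetic cells met it. Cells of fewer than 5000 UMIs were left out here and in all thinned values below. They were 7 group and 87 other cells of the diabetic library, and 13 and 128 of the non-diabetic one. The upper limits removed unequal numbers: 7 of 165 diabetic and 37 of 191 non-diabetic cells with enough Ccl24 and Lpl were left out for Inhba, the gene of an activin subunit. At the threshold, 15 diabetic and 16 non-diabetic cells had exactly 5 UMIs, and 19 and 16 cells with exactly 4 UMIs stood just outside.

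Most group cells reached 5 UMIs of Ccl24 or of Lpl but not of both. Classes were set at 5 UMIs of each gene. Lpl alone passed in 115 diabetic and 69 non-diabetic cells, 78.8% (71.2% to 85.1%) and 46.6% (38.4% to 55.0%) of the group in each library. Set against whole libraries, these were 115 of 1755 filtered diabetic and 69 of 1123 filtered non-diabetic cells. Ccl24 alone passed in 20 diabetic and 46 non-diabetic cells, 13.7% (8.57% to 20.4%) and 31.1% (23.7% to 39.2%). Both genes passed in 6 diabetic and 23 non-diabetic cells, and in 5 and 10 cells only the sum reached 5. Under the same upper limits, 6.9% of all filtered diabetic and 8.19% of all filtered non-diabetic cells passed for Lpl. Cells that passed for Ccl24 thus passed for Lpl more often than filtered cells at large, in both libraries. By the class counts the mix differed between the libraries, so values over the whole group are followed by values per class where these differed.

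**Figure D1:**
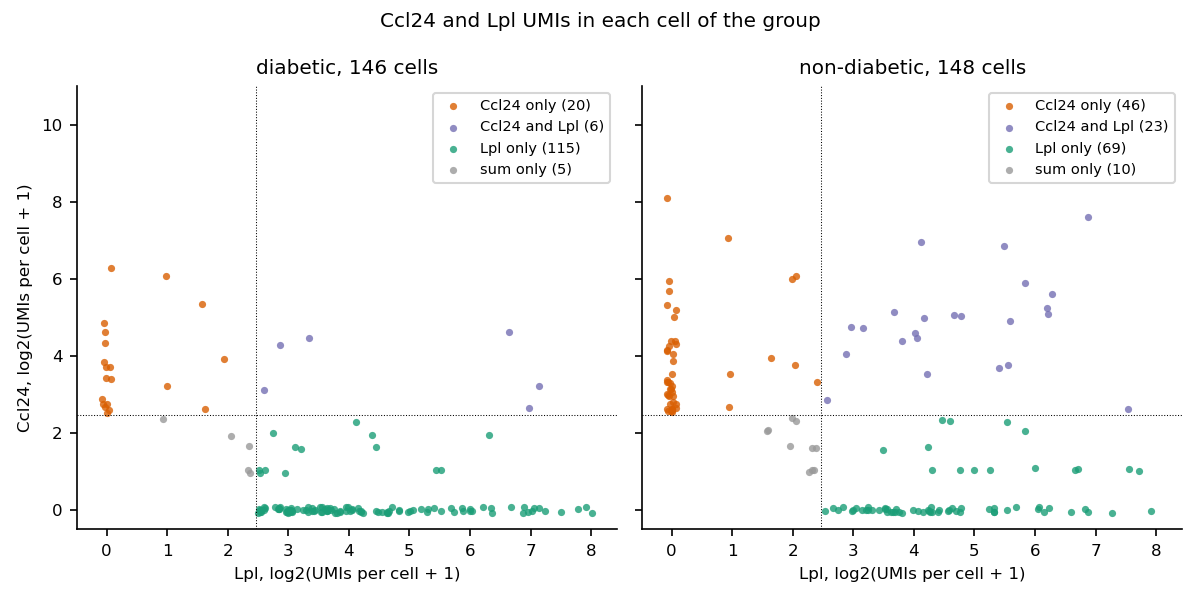
UMIs of Lpl (x axis) and Ccl24 (y axis) in each group cell, both as log2(UMIs + 1) with a small random offset; each point is a cell, coloured by class, and dotted lines mark the 5 UMI limit. The diabetic panel on the left holds 115 Lpl only cells and 20 Ccl24 only cells, and the non-diabetic panel on the right 69 and 46.

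**Figure D2:**
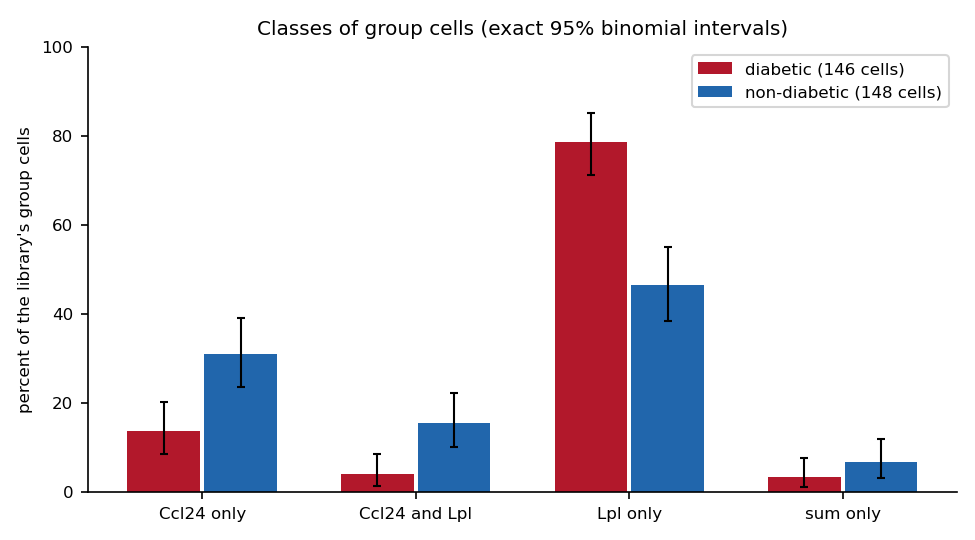
Percent of each library's group cells in the 4 classes, with exact 95% binomial intervals as error bars. Lpl only cells formed 78.8% of the diabetic group and 46.6% of the non-diabetic group.

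Diabetic group cells had less Ccl24 and slightly less Lpl. Ccl24, on chromosome 5 (GRCm38, 135569937 to 135573049, minus strand), stood at 152 CPM (139 to 166) in diabetic group cells and 952 CPM (912 to 994) in non-diabetic ones. In diabetic group cells its lower quartile, median and upper quartile were 0, 0 and 1 UMIs with a highest value of 78, and in non-diabetic group cells 0, 3.5 and 12.25 with a highest value of 273. Diabetic cells were the lower ones also inside the Ccl24 only class, at 1045 CPM against 1858 CPM, and among the cells outside the group, at 9.03 CPM against 74.5 CPM. Lpl, on chromosome 8 (68880491 to 68907448, plus strand), stood at 1357 CPM (1317 to 1398) in diabetic group cells and 1676 CPM (1623 to 1731) in non-diabetic ones. Its medians of 11 UMIs per diabetic and 10 per non-diabetic group cell lay close together, with highest values of 256 in diabetic and 237 in non-diabetic cells. These levels were used to choose the cells and are a description.

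Of the other markers, Gdf15 separated the libraries most. Gdf15 (chromosome 8, 70629393 to 70632456, minus strand) had 0 UMIs in the 146 diabetic group cells, which allows a level of up to 0.938 CPM by a count of 3, against 287 UMIs or 129.5 CPM (115 to 145) in non-diabetic group cells. This made it at least 138-fold lower in the diabetic group. The non-diabetic UMIs lay in 29 of 148 cells, each of which also had an Lpl UMI. The cell with the most held 32.1% of them, and without it the level was 88.8 CPM. By class the non-diabetic level was 206 CPM in cells with both genes, 102 CPM in Lpl only cells and 3.36 CPM in Ccl24 only cells. Outside the group Gdf15 stood at 3.34 CPM in diabetic and 27.8 CPM in non-diabetic cells, so it was low across the diabetic library and not in these cells alone. A Gdf15 UMI was found in 3.19% of the non-diabetic cells with 5 or more UMIs of Cd209a and Klrd1, cells with a median of 20616.5 UMIs, and in 19.6% of the non-diabetic group cells, with a median of 14577.5.

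Gpnmb (chromosome 6, 49036546 to 49070929, plus strand) did not separate the libraries. It stood at 35.6 CPM (29.4 to 42.8) in diabetic and 34.3 CPM (27.0 to 42.9) in non-diabetic group cells, a log2 ratio of 0.05 (-0.38 to 0.49). A UMI was found in 27 of 146 diabetic and 22 of 148 non-diabetic group cells. The highest non-diabetic cell held 25 UMIs and the next 17, and the highest diabetic cell 14, so the non-diabetic level rested largely on few cells. The counting interval of that ratio, -0.38 to 0.49, includes 0, which does not show that the levels were alike. Bcl2a1a stood at 52.8 CPM in diabetic and 124 CPM in non-diabetic group cells, and its near copy Bcl2a1b at 140.4 CPM in diabetic and 491 CPM in non-diabetic cells. The non-diabetic excess of Bcl2a1a was carried by cells with both rule genes, at 95.7 CPM in 6 diabetic and 473 CPM in 23 non-diabetic cells, while Lpl only cells stood at 53.7 CPM in diabetic and 57.5 CPM in non-diabetic cells.

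Summed over all classes, group cells had more Pcdh7 and Axl and less Saa3 and S100a8 than the other filtered cells of their library. A gene was compared when both sums together held at least 20 UMIs and either set of cells reached 50 CPM. It was counted when its level differed by 2-fold or more. In the diabetic library 169 of 3184 genes were at least 2-fold higher in the group (5.31%) and 158 lower (4.96%), and in the non-diabetic library 90 of 3056 were higher (2.95%) and 67 lower (2.19%). Because the cells were chosen by their transcripts, nothing is read from these counts. Another scaling changed the balance: edgeR's TMM factors shifted all ratios by 0.16 (log2) in the diabetic and 0.14 in the non-diabetic library, giving 115 higher and 217 lower, and 58 higher and 87 lower.

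Beside Lpl and Ccl24, the genes with the highest ratios in both libraries included Pcdh7 (a protocadherin), Axl (a receptor for Gas6 that binds dying cells), Ctsk, the protease cathepsin K, and Atp6v0d2 (a subunit of the proton pump that acidifies lysosomes). The Ctsk and Atp6v0d2 values rested on few cells: 11 of 146 diabetic group cells held 98.2% of the Ctsk and 94.5% of the Atp6v0d2 UMIs, and 1 of 148 non-diabetic group cells 94.1% and 70%. Without cells of 10 or more Ctsk UMIs, Ctsk stood at 18.5 CPM in diabetic group cells against 17.7 CPM in the others, and at 5.97 CPM in non-diabetic group cells against 3.28 CPM in the others. Axl stood at 37.5 CPM in diabetic group cells against 6.02 CPM in the other diabetic cells, and at 70.4 CPM in non-diabetic group cells against 12.9 CPM. Pcdh7 stood at 63.5 CPM in diabetic group cells against 7.42 CPM in the others. In the non-diabetic library it stood at 11.7 CPM in group cells against 1.59 CPM in the others, both below the minimum of 50 CPM. Qpct, Chchd10, Atic and Nolc1 were also among the 12 highest. Pparg, the nuclear receptor of fat and lipid genes, stood 5.87-fold above the others in diabetic and 7.52-fold in non-diabetic group cells, and Cd36, a scavenger receptor that takes up fatty acids, 2.02-fold and 3.75-fold. Mitf, a transcription factor of lysosomal and osteoclast genes, stood 2.26-fold and 2.67-fold above. Of the 20 genes listed for lysosomes and lipid-associated macrophages, 4 of 20 compared were at least 2-fold higher in the diabetic group and 4 of 19 in the non-diabetic group, with 0 lower in either. Over all genes compared, 5.31% were higher and 4.96% lower in the diabetic group, and 2.95% and 2.19% in the non-diabetic group. The list includes Ctsk and Atp6v0d2, whose group UMIs lay mostly in few cells, so its counts do not describe the group at large.

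The lowest ratios in both libraries, beside Inhba, Cd209a and Klrd1 that the rule limits, belonged to Saa3, S100a8, Cxcl5, Sparc and Ifitm1, whose reads may be shared with near copies. Saa3, an acute phase protein gene, stood at 2619 CPM in diabetic group cells against 17938 CPM in the other diabetic cells. In the non-diabetic library it stood at 27.5 CPM in group cells against 206 CPM in the others. The 20 diabetic Ccl24 only cells had 352079 of the diabetic group's 3198255 UMIs but more Saa3 UMIs than its other cells together. The low diabetic Saa3 level thus lay mainly in Lpl only cells. Single cells weighed on it too, with 2583 Saa3 UMIs in a Ccl24 only and 1368 in an Lpl only cell. The neutrophil chemokine gene Cxcl5 stood at 7.19 CPM in diabetic group cells against 272 CPM in the others, and at 1.35 CPM in non-diabetic group cells against 28.9 CPM in the others. In the non-diabetic library it thus stayed below the minimum of 50 CPM. The 10 neutrophil markers summed to 386 CPM in diabetic group cells against 5151 CPM in the other diabetic cells. In the non-diabetic library they summed to 97.9 CPM in group cells against 316 CPM in the others. By class the diabetic sums were 1463 CPM in Ccl24 only and 256 CPM in Lpl only cells. Without S100a8 and S100a9 the sums were 59.4 CPM in diabetic group cells against 354 CPM in the others, and 65.4 CPM in non-diabetic group cells against 97.3 CPM in the others. Of the acute phase genes, 7 of 7 compared were at least 2-fold lower in the diabetic group than in the other diabetic cells, against 4.96% of all genes, and 2 of 4 in the non-diabetic group, against 2.19%.

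Between the libraries, diabetic group cells had more genes lower than higher. Of 3271 genes compared, 170 were at least 2-fold higher in diabetic than in non-diabetic group cells (5.2%) and 303 at least 2-fold lower (9.26%). Among the other filtered cells 118 of 3017 were higher (3.91%) and 138 lower (4.57%). The 12 genes with the highest ratios were Saa3, Mmp9, Hist1h1b, Cd163, Tpm3-rs7, Top2a, Wfdc21, S100a8, Ube2c, Fxyd2, Cxcl14 and Mmp12. The 12 with the lowest were Gdf15, Ccl17, Ccl22, Tnfrsf9, Ppbp, Itga1, Slfn4, Ccnd2, Ccr7, Phlda1, Cxcl3 and Oasl1. Tpm3-rs7 and Slfn4 have near-identical copies (Tpm3 and Slfn3), so their levels are uncertain.

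**Figure D3:**
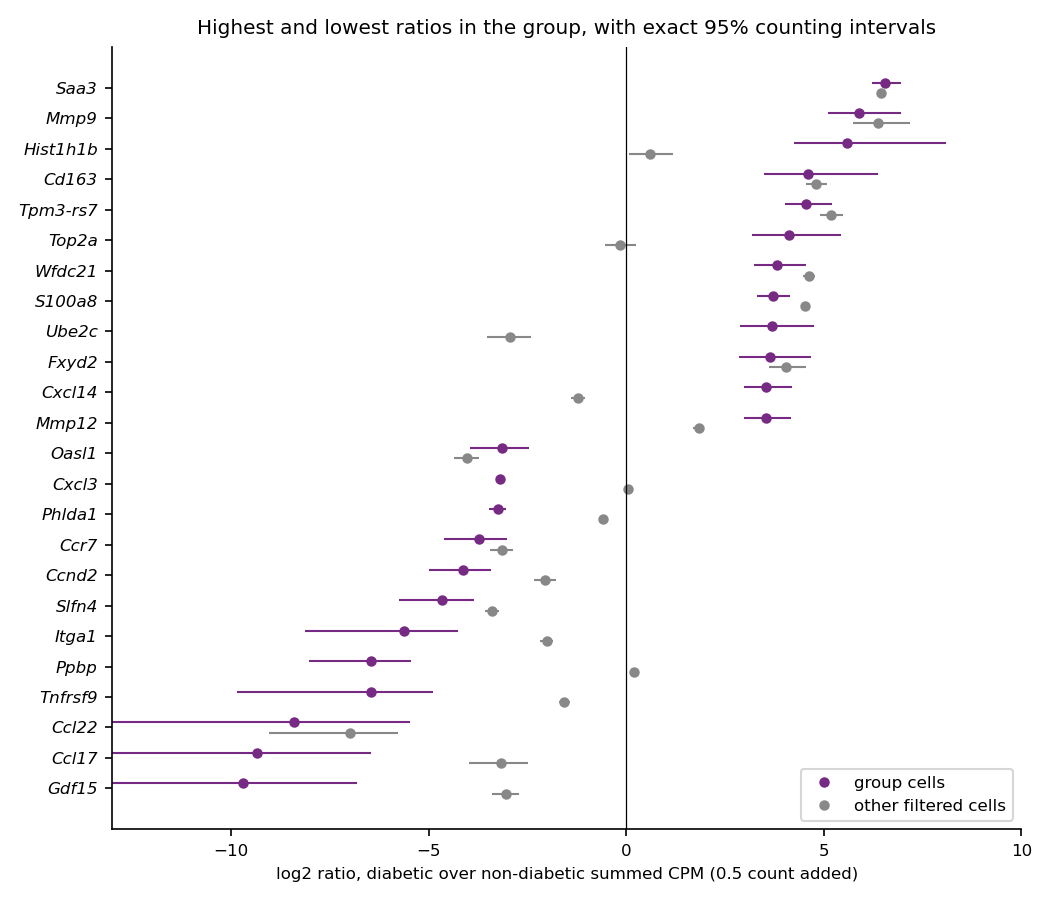
Log2 ratio of summed CPM, diabetic over non-diabetic, for the 12 genes with the highest and the 12 with the lowest ratio in the group; lines are exact 95% counting intervals, purple for group cells and grey for other filtered cells, and lines that reach the left edge have no lower bound because the diabetic count was 0. Saa3 and Mmp9 lay above 5 in both sets of cells, while Ube2c and Cxcl14 lay above 0 in the group and below 0 in the other cells.

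Several of these genes differed in the other cells as well. Saa3 stood at 2619 CPM in diabetic group cells and 27.5 CPM in non-diabetic ones, a log2 ratio of 6.56 (6.21 to 6.96), and had a log2 ratio of 6.45 among the other cells. A Saa3 UMI was found in 122 of 146 diabetic and 20 of 148 non-diabetic group cells. Among diabetic cells with 5 or more UMIs of Cd209a and Klrd1 the share with a Saa3 UMI was 67.6% at a median of 19750 UMIs, against 83.6% in the diabetic group at 18444 UMIs. After thinning to 5000 UMIs those shares were 28.6% and 56.8%. Cd163, the haemoglobin scavenger receptor, stood at 59.7 CPM in diabetic and 2.26 CPM in non-diabetic group cells, and at 265 CPM in diabetic and 9.38 CPM in non-diabetic cells outside the group. S100a8 stood at 309 CPM in diabetic and 23.5 CPM in non-diabetic cells in the group and at 4341 CPM in diabetic and 188 CPM in non-diabetic cells outside it. S100a8 and S100a9 stand on the lists of acute phase genes and of neutrophil markers, and the other 8 neutrophil markers summed to 59.4 CPM in diabetic and 65.4 CPM in non-diabetic group cells. Ltf and Ngp were at 0 in the diabetic group, and Retnlg, G0s2, Camp and Ngp in the non-diabetic group.

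A small set of diabetic Lpl cells carried genes of osteoclasts, the bone-resorbing relatives of macrophages. Ctsk, whose product cleaves collagen, stood at 838 CPM (807 to 871) in diabetic and 99.7 CPM (87.0 to 114) in non-diabetic group cells, 8.41-fold higher. Acp5, tartrate-resistant acid phosphatase, stood at 910.5 CPM in diabetic and 81.7 CPM in non-diabetic group cells, 11.1-fold higher. Atp6v0d2 stood at 91.3 CPM in diabetic and 9.03 CPM in non-diabetic cells, and Mmp9, the gelatinase B gene, at 309 CPM in diabetic and 4.96 CPM in non-diabetic cells. All 4 were higher in the diabetic group.

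Most of this signal came from few cells. At least 10 Ctsk UMIs were found in 11 diabetic group cells and 1 non-diabetic one, each of the Lpl only class, and 8 diabetic and 4 non-diabetic cells outside the group also passed that count. The 11 diabetic cells held 98.2% of the group's Ctsk UMIs, 83.7% of its Acp5 UMIs, 94.5% of its Atp6v0d2 UMIs, 65.5% of its Mmp9 UMIs and 20.5% of its Lpl UMIs. All 11 also had 10 or more Acp5 UMIs and an Atp6v0d2 UMI, 9 had a Mmp9 UMI and 4 a Gpnmb UMI. They were large libraries, with a median of 53465 UMIs against 18444 in the diabetic group as a whole, and the single non-diabetic cell had 37619. Without cells of 10 or more Ctsk UMIs the log2 ratio was 1.59 for Ctsk, 2.61 for Acp5, 1.09 for Atp6v0d2 and 5.46 for Mmp9. The whole-group Ctsk ratio of 3.07 turned to -1.93 when cells of 40000 or more UMIs were left out, which removed 13 diabetic cells and 1 non-diabetic cell but kept the non-diabetic cell with 94.1% of that library's Ctsk UMIs. It was 6.79 without the top Ctsk cell of each library. No Ctsk UMI was found in the 94 non-diabetic cells with 5 or more UMIs of Cd209a and Klrd1, and 1 of the 37 such diabetic cells had one. Scrublet marked 0 of the 146 diabetic and 2 of the 148 non-diabetic group cells as doublets, and the part of droplets with several cells in these values was not tested.

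**Figure D4:**
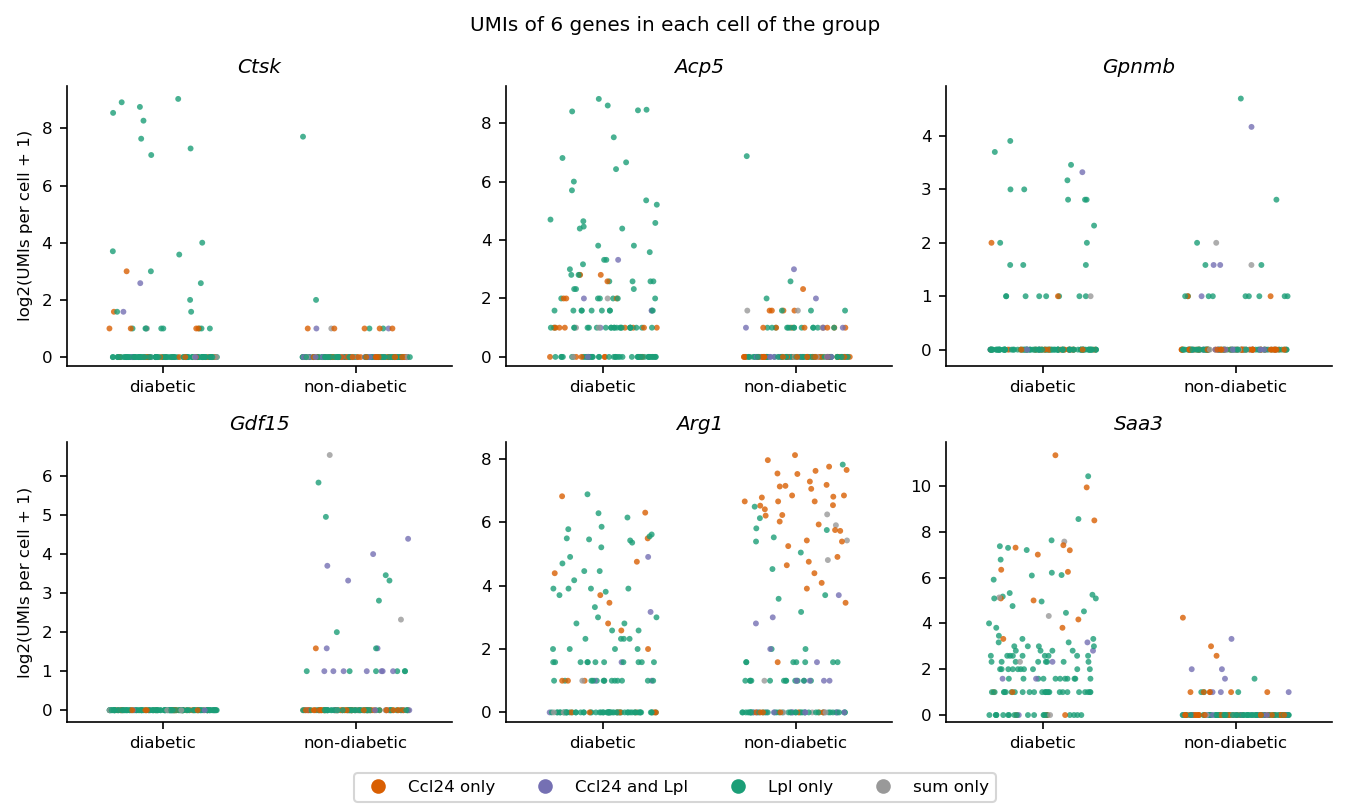
UMIs per group cell of Ctsk, Acp5, Gpnmb, Gdf15, Arg1 and Saa3 as log2(UMIs + 1), diabetic cells left and non-diabetic cells right in each panel; each point is a cell, coloured by class. The high Ctsk values are 11 diabetic cells and 1 non-diabetic cell of the Lpl only class, Gdf15 was at 0 in all 146 diabetic cells, and the high Arg1 values on the right are mostly Ccl24 only cells.

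The start regions of Ctsk, Acp5 and Gpnmb are shown because the 11 diabetic cells held most of the group's Ctsk and Acp5 UMIs and Gpnmb is a marker given with the group, and because MITF, whose gene was 2.26-fold and 2.67-fold above the other cells in the diabetic and non-diabetic group, belongs to a family that binds the letters TCANGTG (the M-box). Each run of 300 bases, from 250 before to 50 after the RefSeq start on GRCm38.p6, is given 5′ to 3′ on the gene's strand, with a match to TCANGTG on either strand in capitals. Acp5 has 3 listed starts, and the one with a match is shown (chr9:22130549-22130848, minus strand). Ctsk (chr3:95498960-95499259, plus strand) and Gpnmb (chr6:49036268-49036567, plus strand) had no match in this window.
Ctsk: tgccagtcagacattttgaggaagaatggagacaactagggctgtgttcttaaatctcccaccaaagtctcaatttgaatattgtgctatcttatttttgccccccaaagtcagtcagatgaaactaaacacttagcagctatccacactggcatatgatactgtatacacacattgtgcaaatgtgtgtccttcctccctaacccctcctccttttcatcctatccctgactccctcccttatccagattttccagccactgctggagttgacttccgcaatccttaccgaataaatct
Acp5: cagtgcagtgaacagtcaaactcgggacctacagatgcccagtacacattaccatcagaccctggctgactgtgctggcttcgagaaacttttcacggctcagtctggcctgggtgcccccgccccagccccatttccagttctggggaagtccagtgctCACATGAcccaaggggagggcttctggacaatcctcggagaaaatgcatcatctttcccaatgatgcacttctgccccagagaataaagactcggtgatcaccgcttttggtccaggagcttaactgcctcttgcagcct
Gpnmb: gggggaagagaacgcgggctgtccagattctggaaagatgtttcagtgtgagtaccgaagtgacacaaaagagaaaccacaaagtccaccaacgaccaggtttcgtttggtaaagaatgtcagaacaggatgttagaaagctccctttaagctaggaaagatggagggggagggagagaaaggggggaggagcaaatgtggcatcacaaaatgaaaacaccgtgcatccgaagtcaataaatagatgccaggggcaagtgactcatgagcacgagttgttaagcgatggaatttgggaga
Of the 11 marker and leading genes looked for, 7 were in the promoter table. Among all 32851 listed promoters 4701 held the letters (14.3%), so the match at Acp5 is a description, and binding there was not tested. Of the 7 genes, 2 had a match, Acp5 and Bcl2a1a, where it starts at base -220 of the only listed promoter.

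Cycling cells were also among the diabetic Lpl cells. At least 5 UMIs of 12 G2/M genes were found in 11 of 146 diabetic group cells (7.53%, 3.82% to 13.1%) and 2 of 148 non-diabetic ones (1.35%, 0.164% to 4.80%), each of the Lpl only class. Among them were 5 of the 11 diabetic Ctsk cells. The cycling diabetic cells had a median of 55114 UMIs, and after thinning to 5000 UMIs, counting cells with 2 or more G2/M UMIs, the shares were 5.04% (2.05% to 10.1%) in diabetic and 2.96% (0.813% to 7.41%) in non-diabetic group cells, with overlapping intervals. Top2a, a DNA topoisomerase of dividing cells, stood at 66.3 CPM in diabetic and 3.61 CPM in non-diabetic group cells, and Mki67 at 76.9 CPM in diabetic and 14.9 CPM in non-diabetic cells. Ube2c stood at 66.3 CPM in diabetic and 4.96 CPM in non-diabetic cells in the group but at 1.29 CPM in diabetic and 9.91 CPM in non-diabetic cells outside the group. Without the cells of 5 or more G2/M UMIs, the group's log2 ratio of Mki67 was -0.34 and that of Ube2c -0.28.

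Other secreted and matrix genes stood higher in the diabetic group. Cxcl14, a chemokine gene, was at 139 CPM in diabetic and 11.7 CPM in non-diabetic group cells, with a UMI in 36 diabetic and 15 non-diabetic cells. In Lpl only cells it stood at 118 CPM in diabetic and 1.67 CPM in non-diabetic cells, and outside the group at 18.7 CPM in diabetic and 43.4 CPM in non-diabetic cells, in the other direction. The difference between these directions was not tested. Mmp12, macrophage elastase, stood at 143 CPM in diabetic and 12.2 CPM in non-diabetic cells, but 80.1% of the diabetic UMIs came from 1 cell, and the levels without the top cell of each library were 28.7 CPM in diabetic and 6.80 CPM in non-diabetic cells. Timp2, an inhibitor of matrix proteases, stood at 255 CPM in diabetic and 90.3 CPM in non-diabetic cells, 2.82-fold higher. Cxcl16, which encodes a membrane-bound chemokine and scavenger receptor, stood at 273 CPM in diabetic and 82.6 CPM in non-diabetic cells, and Cd63, a tetraspanin of lysosomes, at 718 CPM in diabetic and 292 CPM in non-diabetic cells.

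The Ccl24 only cells differed between the libraries in another set of genes. In that class 418 of 3311 genes were at least 2-fold higher in the 20 diabetic than in the 46 non-diabetic cells (12.6%) and 442 lower (13.3%), with the small diabetic sum of 352079 UMIs. Arg1, arginase 1 (chromosome 10, 24915221 to 24927484, minus strand), stood at 906 CPM in diabetic and 6497 CPM in non-diabetic Ccl24 only cells, 7.17-fold lower. Of the cells with 10 or more Arg1 UMIs, 7 of 31 diabetic and 38 of 54 non-diabetic ones were of that class. In Lpl only cells Arg1 stood at 369 CPM in diabetic and 578 CPM in non-diabetic cells, and over the whole group at 418 CPM (396 to 441) in diabetic and 2167 CPM (2106 to 2229) in non-diabetic cells. The other filtered cells lay closer together, at 2052 CPM in diabetic and 2530.4 CPM in non-diabetic cells.

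Of 13 chemokine genes compared in Ccl24 only cells, 8 were at least 2-fold lower and 1 higher in diabetic cells, with a median log2 ratio of -2.23, against 13.3% and 12.6% of all genes. Cxcl2, a neutrophil chemokine gene, stood at 4422 CPM in diabetic and 32277 CPM in non-diabetic cells of the class, and Cxcl3 at 588 CPM in diabetic and 6457 CPM in non-diabetic cells, with 78.3% of the diabetic Cxcl3 UMIs in 1 cell. Ppbp, the precursor of the chemokine CXCL7, had 1 UMI in the diabetic class and 389 UMIs in 12 of the 46 non-diabetic cells. Thbs1, thrombospondin 1, stood at 1409 CPM in diabetic and 7429.6 CPM in non-diabetic cells, and Vegfa, the vascular growth factor gene, at 99.4 CPM in diabetic and 966 CPM in non-diabetic cells. Every non-diabetic Ccl24 only cell had a Thbs1 UMI.

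Antigen presentation genes stood the other way round. H2-Aa, a chain of MHC class II, was at 2380.2 CPM in diabetic and 155 CPM in non-diabetic Ccl24 only cells, H2-Ab1 at 1545 CPM in diabetic and 114 CPM in non-diabetic cells, and Cd74, the invariant chain, at 4859.7 CPM in diabetic and 1009.8 CPM in non-diabetic cells. Ciita, the regulator of these genes, had 18 UMIs in the diabetic class and 0 UMIs in the non-diabetic one. Lpl only cells showed no such gap for H2-Aa, at 1813 CPM in diabetic and 2155 CPM in non-diabetic cells. The median log2 ratio of the list of MHC class II and costimulation genes was -0.87 there and 2.46 in Ccl24 only cells. C1qa, a complement gene of resident and mature macrophages, stood at 1247 CPM in diabetic and 228 CPM in non-diabetic cells in Ccl24 only cells and at 653 CPM in diabetic and 600.1 CPM in non-diabetic cells in Lpl only cells, and Mrc1, the mannose receptor, at 721 CPM in diabetic and 299 CPM in non-diabetic cells of the Ccl24 only class and at 140.4 CPM in diabetic and 402 CPM in non-diabetic cells of the Lpl only class. Saa3 UMIs of the diabetic class were uneven, with 54.1% of 4776 UMIs in 1 cell.

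Within a library the 2 classes could be set side by side. Among non-diabetic cells 242 of 3263 genes were at least 2-fold higher in Ccl24 only than in Lpl only cells (7.42%) and 260 lower (7.97%), and among diabetic cells 225 of 3321 were higher (6.78%) and 261 lower (7.86%). These classes were cut on the transcripts of the same cells, and the counts are a description. In the non-diabetic library 9 of 12 compared inflammatory genes and 9 of 15 compared genes of glycolysis and hypoxia were at least 2-fold higher in Ccl24 only cells, with 0 lower, while 6 of 8 compared MHC class II and costimulation genes were at least 2-fold lower. In the diabetic library the counts were 3 of 9, 1 of 12 and 0 of 8 in those directions. Pf4, the gene of platelet factor 4, was higher in Ccl24 only cells of both libraries, at 3769 CPM against 564 CPM in diabetic Lpl only cells and at 3564 CPM against 669 CPM in non-diabetic ones. Gpnmb had few UMIs in Ccl24 only cells, at most 3 in a diabetic and 1 in a non-diabetic cell, and no direction is read for it. Axl was lower in Ccl24 only cells of both libraries. Ctsk was lower as well, but this rested on the cells of 10 or more Ctsk UMIs, all of the Lpl only class. Without them Ctsk stood at 36.9 CPM in Ccl24 only against 13.3 CPM in Lpl only diabetic cells, and at 8.40 CPM against 4.30 CPM in the non-diabetic classes. These were 13 and 27 UMIs in the diabetic and 5 and 5 UMIs in the non-diabetic classes. A single diabetic Ccl24 only cell held 7 of its class's 13. No direction is read from counts this low.

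A few low ratios of the whole group rested on single cells. Ccl17 and Ccl22, ligands of the receptor CCR4, had 0 UMIs in diabetic group cells and 225 and 116 UMIs in non-diabetic ones. In the non-diabetic group 1 cell held 93.8% of the Ccl17 UMIs and 1 cell all Ccl22 UMIs. Ccr7, a receptor of migrating dendritic cells, had 98% of its 150 non-diabetic UMIs in 1 cell, and Tnfrsf9 55.9% of 152. Without Ccr7, the other 7 dendritic cell markers summed to 6 UMIs in diabetic and 26 UMIs in non-diabetic group cells. Itga1, an integrin chain that binds collagen, was spread more evenly: 2 of 146 diabetic cells had a UMI and 55 of 148 non-diabetic ones, a log2 ratio of -5.61 (-8.13 to -4.24), and outside the group it was -2.01.

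By gene list, genes of inflammation, chemokines and interferon response were lower in diabetic group cells. Of 13 interferon-induced genes compared, 13 were at least 2-fold lower, with a median log2 ratio of -2.14, against 9.26% lower and a median of 0.03 over all genes compared. The other filtered cells gave 14 of 14 and -1.89, so the low values were seen outside the group too. Isg15, a ubiquitin-like protein gene, stood at 35.3 CPM in diabetic and 243 CPM in non-diabetic group cells, and Irf7, a transcription factor of the response, at 24.7 CPM in diabetic and 115 CPM in non-diabetic cells. Of 9 inflammatory mediators 8 were at least 2-fold lower, with a median of -2.07, against a median of -0.40 and 4 of 12 lower in the other cells. Il1b stood at 1347 CPM in diabetic and 3751 CPM in non-diabetic cells, Tnf at 173 CPM in diabetic and 912 CPM in non-diabetic cells and Ptgs2, the cyclooxygenase 2 gene, at 372 CPM in diabetic and 1494 CPM in non-diabetic cells. Of 16 chemokine genes 12 were at least 2-fold lower and 2 higher (median -1.96), against 2 lower and 2 higher of 12 in the other cells (median -0.66). Ccl6 stood at 649.7 CPM in diabetic and 3153 CPM in non-diabetic cells, Ccl4 at 436 CPM in diabetic and 2244 CPM in non-diabetic cells and Ccl2, which draws in monocytes, at 315 CPM in diabetic and 1273 CPM in non-diabetic cells. Inside the Lpl only class, where 158 of 3300 genes were at least 2-fold higher in diabetic cells (4.79%) and 291 lower (8.82%), the medians were -2.44 for interferon-induced genes, -1.43 for inflammatory mediators and -1.05 for chemokines.

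**Figure D5:**
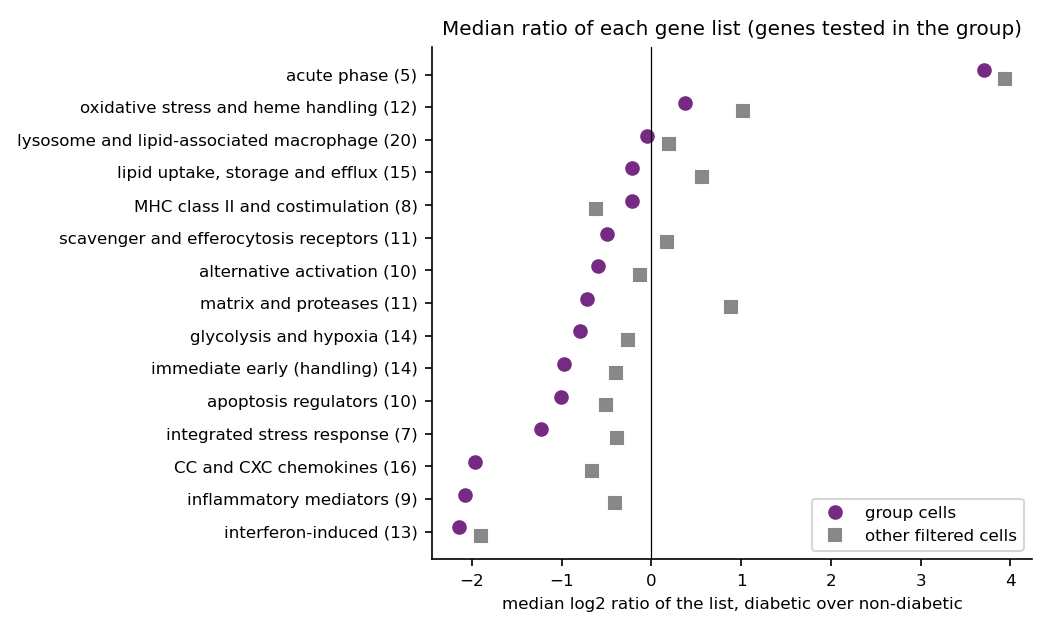
Median log2 ratio, diabetic over non-diabetic, of each gene list with at least 5 compared genes; circles are group cells and squares other filtered cells, and the number behind each list counts its genes compared in the group. Interferon-induced genes lay near -2 in both sets, while inflammatory mediators lay at -2.07 in the group and -0.40 in the other cells.

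Immediate early genes, which cell digestion and handling also raise, were lower in diabetic group cells too. Of 14 compared, 14 had a log2 ratio below 0 and 6 were at least 2-fold lower in diabetic group cells (median -0.98), and in the other cells 12 of 14 were below 0 (median -0.40). Over all genes compared, 9.26% were at least 2-fold lower in the group and 4.57% in the other cells, with median log2 ratios of 0.03 and 0.04. Egr1 stood at 135 CPM in diabetic and 688 CPM in non-diabetic group cells and Junb at 1321 CPM in diabetic and 3113 CPM in non-diabetic cells. Their part in the inflammatory and chemokine values was not tested. Genes of the integrated stress response, of which Gdf15 is a known target, were lower as well: 5 of 7 were at least 2-fold lower (median -1.23), with Ddit3 at 11.9 CPM in diabetic and 48.3 CPM in non-diabetic cells and Atf3 at 429.6 CPM in diabetic and 1068 CPM in non-diabetic cells, against 0 of 8 in the other cells.

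Classical monocyte markers were lower in the diabetic group. Of 6 compared, 5 were at least 2-fold lower and 0 higher (median -1.39), against 5.2% and 9.26% of all genes compared that were higher and lower. This was seen in Lpl only cells, where 5 of 6 were lower and the markers summed to 1125 CPM in diabetic and 3402 CPM in non-diabetic cells. In Ccl24 only cells 0 of 6 were lower, with sums of 4045 CPM in diabetic and 4420.5 CPM in non-diabetic cells. Ccr2, the receptor by which monocytes enter tissue, stood at 369.9 CPM in diabetic and 880.4 CPM in non-diabetic group cells, Plac8 at 128 CPM in diabetic and 445 CPM in non-diabetic cells and Vcan, the proteoglycan versican, at 243 CPM in diabetic and 807 CPM in non-diabetic cells. In the other filtered cells 3 of 7 were at least 2-fold lower. Fn1, fibronectin, stood at 1377 CPM in diabetic and 5000.4 CPM in non-diabetic group cells, 3.63-fold lower, and at 1918 CPM in diabetic and 2202 CPM in non-diabetic cells outside the group.

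Lipid genes differed little as a list, although Lpl helped define the group. Of 15 compared genes of lipid uptake, storage and efflux, 0 were at least 2-fold higher and 3 lower in diabetic group cells (median -0.22), against 5.2% and 9.26% of all genes. In the other cells 3 of 12 were higher and 1 lower. Fabp4, a fatty acid carrier, stood at 31.6 CPM in diabetic and 94.8 CPM in non-diabetic group cells but at 60.6 CPM in diabetic and 15.7 CPM in non-diabetic cells outside the group. Plin2, a coat protein of lipid droplets, stood at 671 CPM in diabetic and 1042 CPM in non-diabetic cells, and Cd36 at 423 CPM in diabetic and 337 CPM in non-diabetic cells. Of 20 genes of lysosomes and lipid-associated macrophages, 4 were at least 2-fold higher (Ctsk, Acp5, Atp6v0d2 and Cd63) and 0 lower (median -0.05, with values from -0.16 to 0.06 under the alternative processings). Trem2, a lipid-sensing receptor, stood at 335 CPM in diabetic and 236 CPM in non-diabetic cells, and Spp1, osteopontin, at 1273 CPM in diabetic and 2518 CPM in non-diabetic cells.

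The remaining lists were mixed, beside 5.2% of all genes at least 2-fold higher and 9.26% lower in diabetic group cells. Of 8 MHC class II and costimulation genes 1 was at least 2-fold lower, near that share, and their median of -0.22 turned to 0.71 when cells were thinned to 5000 UMIs and to 0.61 when each cell's CPM was averaged. It was -0.87 in Lpl only and 2.46 in Ccl24 only cells, so the classes lay on opposite sides of 0. Of 10 apoptosis regulators 5 were at least 2-fold lower and 0 higher, among them Bcl2a1b and Tnfaip3, the A20 gene, at 240.4 CPM in diabetic and 788 CPM in non-diabetic cells. Of 14 genes of glycolysis and hypoxia 7 were at least 2-fold lower and 0 higher (median -0.79). Of 12 genes of oxidative stress and heme handling 3 were at least 2-fold higher (Gclm, Prdx1 and Mt2) and 1 lower (Sqstm1). Of 11 matrix and protease genes 3 were higher (Mmp9, Mmp12 and Timp2) and 5 lower (median -0.71), but the median was 0.61 in Lpl only and -1.15 in Ccl24 only cells. Of 10 alternative activation genes 2 were higher (Cd163 and Clec10a, whose reads may be shared with its near copy Mgl2) and 4 lower, with Chil3 at 326 CPM in diabetic and 846 CPM in non-diabetic group cells. The median of this list was -0.60 in the group and 0.42 in Ccl24 only cells, where the log2 ratio of Chil3 was 0.18.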

How the data were processed

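Wound monocytes and macrophages of diabetic and non-diabetic mice were profiled by 10x Chromium 3' RNA sequencing, 1 library each. The deposited values are UMI counts per gene and barcode made with Cell Ranger 3.0.2, per the file headers, on mm10, per the submitters' processing notes. The gene annotation, aligner settings and any earlier filter are not given in the sources used here. Positions come from GENCODE M21 on GRCm38. Barcodes were kept at 500 or more detected genes when mitochondrial transcripts took less than 10% of the UMIs. Scrublet in scanpy 1.11.5 marked 5 diabetic and 3 non-diabetic cells, which stayed in. The libraries shared 6 deposited barcodes, of which 1 passed the filter in both.

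Counts were summed per library and set of cells, scaled to CPM and compared as log2 ratios with 0.5 added. Genes with 20 or more UMIs over both sums and 50 CPM or more in either sum were compared, and 2-fold was the limit. A count of 0 was set against 3 counts in that sum for a bound. Shares have Clopper-Pearson intervals, summed counts Poisson intervals and ratios conditional binomial intervals, all exact and at 95%. The code was tested on simulated data. The members and gene lists were chosen with earlier results of these data known. Genes were named as the group's markers and rule genes, the 12 highest and 12 lowest ratios between libraries, the 12 highest and 8 lowest against other cells (mitochondrial, ribosomal, haemoglobin, sex-linked and unnamed gene models left out), and list members at 20 CPM or more. The limits of 10 Ctsk, 10 Arg1 and 5 G2/M UMIs were chosen after values were seen. Alternatives used edgeR 4.0.16 TMM and DESeq2 1.42.0 size factors in R 4.3.3, for scaling only. Near copies are transcripts at 95% identity or more over 200 bases or more (BLAST 2.17.0). Python 3.11.15 with scipy 1.17.1 did the rest.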

Additional observations from a re-analysis of the deposited data

Results flagged for a closer look

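Several genes stood on opposite sides of equal levels in parallel comparisons, by at least 2-fold on each side. None of these differences was tested, since each library stands alone. Gdf15 had a log2 ratio of -4.43 for group over other cells in the diabetic library, where the group had 0 UMIs and the ratio depends on the 0.5 added, and 2.22 in the non-diabetic library. For the same ratio Cxcl14 had 2.89 in the diabetic and -1.86 in the non-diabetic library, Clec10a 1.28 and -1.55, Ppbp -5.60 and 1.06, and Ccl17 -2.27 and 3.91, the last again with 0 diabetic group UMIs and 1 non-diabetic cell with 93.8% of the UMIs.

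Other genes differed in the log2 ratio of diabetic over non-diabetic cells between the group and the other filtered cells. The ratios in the group and in the other cells were 3.68 and -2.93 for Ube2c, 3.54 and -1.21 for Cxcl14, 1.74 and -1.09 for Clec10a, -1.58 and 1.95 for Fabp4, and -2.24 and 1.21 for Serpinb2. They were -1.38 and 2.14 for Areg, -1.20 and 1.61 for Wfdc17, and -1.06 and 2.95 for Ccl8, whose level in the group is bounded by the rule. The reads of Clec10a may be shared with its near copy Mgl2.

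Barcodes outside the filter also met the UMI limits of the rule. These were 10 of 459 failed barcodes in the diabetic and 45 of 903 in the non-diabetic library, and they entered no comparison.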

How the results depend on the processing

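The share of group cells stayed lower in the diabetic library under every alternative run. It was 11.6% in diabetic and 16.4% in non-diabetic cells with a limit of 3 UMIs, 5.41% and 9.08% with 10 UMIs, and 4.15% and 8.45% with cells thinned to 5000 UMIs. The non-diabetic share was 17.0% with no upper limits and 16.3% with no limit on Inhba. Under alternatives chosen after seeing the data it was 1.48% in diabetic and 6.14% in non-diabetic cells by Ccl24 alone, and 6.90% and 8.19% by Lpl alone. The count of 170 genes at least 2-fold higher in diabetic group cells became 418 in Ccl24 only cells, 84 without cells of 40000 or more UMIs and 101 without cells of 10 or more Ctsk UMIs, also chosen after seeing the data. Genes higher in the group than in the other cells numbered 72 by the mean of each cell's CPM, 88 after thinning and 70 without cells of 10 or more Ctsk UMIs in the diabetic library, and 58 by TMM and 58 by DESeq2 size factors in the non-diabetic library. The log2 ratio of diabetic over non-diabetic group cells reversed in Ccl24 only cells for Top2a (-0.46), Cxcl14 (-0.28), Mmp12 (-2.52), Pcdh7 (-0.38), Ccl17 (0.76), Ccl22 (0.76), Ccr7 (0.76), Chil3 (0.18) and Wfdc17 (0.53). It reversed in Lpl only cells for Tnfrsf9 (1.18), Ccr7 (1.10) and Olr1 (0.29), without cells of 40000 or more UMIs for Ube2c (-1.55) and Ctsk (-1.93), and without cells of 5 or more G2/M UMIs for Ube2c (-0.28), Mki67 (-0.34) and Birc5 (-0.28). For group over other non-diabetic cells it reversed for Inhba (0.43), Cd209a (0.33), Mgl2 (2.04), Clec10a (0.57) and Serpinb2 (2.34) when the other cells past an upper limit were left out, and for Ccl22 (-5.62) without its top cell. Beyond the construction of each alternative the cause was not tested. Depth limits genes near the minimum of 20 UMIs over both sums. No paired analysis was possible because each condition has 1 library, so no replicate could be left out either.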

Other observations

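Among receptors for scavenging and for uptake of dying cells, 0 of 11 compared genes were at least 2-fold higher and 2 lower in diabetic than in non-diabetic group cells, near the 5.2% and 9.26% of all genes compared. Their median log2 ratio was -0.50, against 1 higher and 0 lower of 10 and a median of 0.17 in the other filtered cells. Phlda1, a stress-induced gene, stood at 59.7 CPM in diabetic and 568 CPM in non-diabetic group cells.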
